A study of Rattus norvegicus with 10 samples.

Results

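S100 proteins are small calcium-binding proteins, and 8 genes of the family were followed here in primary rat oligodendrocyte progenitor cells (OPCs) and oligodendrocytes (OLs): S100b, S100a1, S100a13, S100a16, S100a11, S100a10, S100a4 and S100a6. They were taken by symbol from the gene names of the deposited table and are 8 of 23487 genes counted, of which 14561 had a symbol. An S100 protein carries a pair of EF-hands, the loop that holds a calcium ion, and usually works as a dimer that opens on binding calcium and then grips a partner protein. S100B is the member best known in the brain, where it is made mainly by astrocytes and also by cells of the OL lineage, and once secreted it can act on the receptor RAGE. S100A10 is the exception in the family, since its EF-hands have lost calcium binding and it is held open, joined to annexin A2.

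The RNA came from cells of Sprague-Dawley rat pups of postnatal days 1 to 3, shaken off mixed glial cultures of the cortex. OLs had been differentiated and were taken 5 days after transfection with a mimic of miR-145-5p (OL miR-145), with mimics of miR-145-5p and miR-219 together (OL miR-145+miR-219) or with a scrambled mimic (OL miR-ctl). OPCs were kept in growth factors and taken 24 hours after transfection with an inhibitor of miR-145-5p (OPC anti-miR-145) or a scrambled inhibitor (OPC anti-miR-ctl). Every oligonucleotide was given at 30 nM. Each of the 5 groups had 2 libraries, 10 in all, and the p-values measure the spread between these libraries. The labels do not say how the libraries of a group were separated, while a general statement of the study counts every N of a primary culture experiment as cultures of an individual animal. A treatment tag of both OL miR-145 libraries names miR-219 as well, while their titles name miR-145 alone, and they are called OL miR-145 here after their titles. The methods name a lentivirus for the sequenced cells where the results and labels name mimics. The mimic has the sequence of the mature miRNA, which RefSeq places at chr18:57370033-57370055 on the minus strand of rat GRCr8. It is shown because it was given or blocked in every group other than the scrambled controls. The capitals mark its seed, bases 2 to 8, through which a miRNA pairs with its targets.
rno-miR-145-5p: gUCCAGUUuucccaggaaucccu

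Library totals ran from 33505706 to 42684206 estimated counts, and levels are given as CPM, the counts of a gene scaled to a common library size, after TMM normalization over all 10 libraries. The stage labels were checked with marker genes. Mbp, which encodes myelin basic protein of maturing OLs, was at 6224 to 15517 CPM in the OL libraries and 230.8 to 279.5 CPM in the OPC libraries. Summed over 6 OPC genes, such as Pdgfra, the level was 2177 to 2939 CPM in OLs and 5855 to 7938 CPM in OPCs. From OPC anti-miR-ctl to OL miR-ctl, 5 of these OPC genes were called lower by edgeR and 1, Tmem100, higher (log2 fold change 0.64). Of 11 maturing OL markers 10 were called higher and Mog was not (0.46). Of all genes tested in that comparison 28.8% were called higher and 28.7% lower. Markers of other cells were present too. The 10 astrocyte markers summed to 5439 to 13240 CPM in the OL libraries, where Gfap held the most counts. In the OPC libraries they summed to 478.1 to 689.3 CPM, with Gfap at 7.81 to 51.1 CPM and Slc1a3 at 167.2 to 403.7 CPM. The 13 microglia markers summed to 420.7 to 1127 CPM in OLs and 1043 to 1606 CPM in OPCs. The 7 fibroblast or mural, 5 endothelial and 7 neuron markers found summed to at most 89.1, 27.7 and 152.0 CPM in any library. In bulk RNA, fewer cells of a type and less RNA per cell cannot be told apart.

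The S100 genes did not follow a single pattern over stage and treatment. From OPC anti-miR-ctl to OL miR-ctl, all 8 were called at an adjusted p under 0.05 in edgeR (quasi-likelihood, p-values adjusted after Benjamini and Hochberg across all tested genes), 4 higher and 4 lower, where 57.5% of the 15721 genes tested were called, 28.8% higher and 28.7% lower. With the inhibitor in OPCs, 1 rose and 3 fell, where 28.1% of 15496 genes were called, 12.1% higher and 16% lower. In OL miR-145 and in OL miR-145+miR-219, 0 of the 8 were called and all 8 had a higher mean than OL miR-ctl. The stage comparison carries culture medium, time after transfection and the kind of oligonucleotide with it, and these cannot be told apart from stage.

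**Figure D1:**
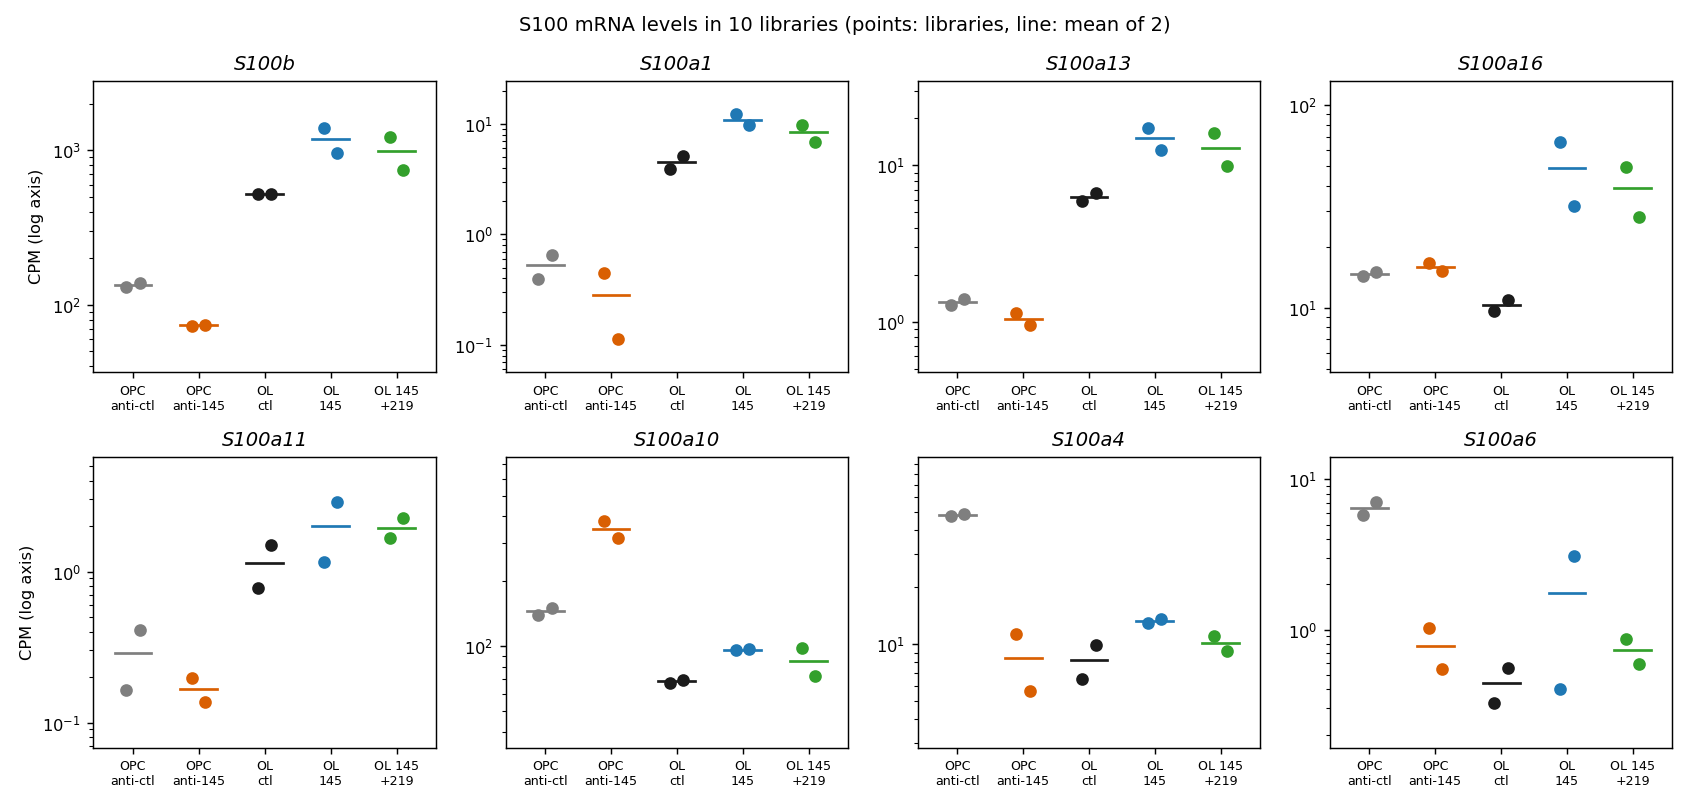
S100 mRNA level in CPM (log axis, a separate range for each gene) in the 10 libraries, with each point a library and each line the mean of the 2 libraries of a group. S100b, S100a1, S100a13 and S100a11 lay higher in all 6 OL libraries than in all 4 OPC libraries, S100a10 was highest in OPC anti-miR-145, and S100a4 and S100a6 were highest in OPC anti-miR-ctl.

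S100b (ENSRNOG00000001295), a ligand of RAGE that also binds many proteins inside the cell, stood at 130.4 and 137.4 CPM in the OPC anti-miR-ctl libraries and at 73.46 and 73.47 CPM in OPC anti-miR-145. In OLs it stood at 524.5 and 520.6 CPM with miR-ctl, at 1402 and 958.8 CPM with miR-145 and at 1221 and 747.2 CPM with miR-145+miR-219. All 6 OL libraries lay above all 4 OPC libraries, and all 4 mimic libraries lay above both OL miR-ctl libraries, while the mimic groups overlapped each other. From OPC anti-miR-ctl (133.9 ± 4.93 CPM, SD, n = 2) to OL miR-ctl (522.5 ± 2.77 CPM, SD, n = 2) it rose 3.90-fold (log2 fold change 1.96, standard error 0.0809, adjusted p = 7.04e-05). The inhibitor lowered it to 73.46 ± 0.00733 CPM (SD, n = 2), which is -0.85 on the log2 scale (standard error 0.0817, adjusted p = 0.000438).

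S100a1 (ENSRNOG00000012410) is best known from striated muscle, where it acts on the ryanodine receptor, and S100a13 (ENSRNOG00000012393) takes part in the unconventional release of FGF1 and interleukin 1 alpha. Their genes are next neighbours in the RefSeq gene order, and their profiles over the 10 libraries were alike. S100a1 was at 0.398 and 0.658 CPM in OPC anti-miR-ctl, 0.447 and 0.114 CPM in OPC anti-miR-145, 3.92 and 5.16 CPM in OL miR-ctl, 12.2 and 9.70 CPM in OL miR-145, and 9.83 and 6.90 CPM in OL miR-145+miR-219. S100a13 was at 1.29 and 1.40 CPM in OPC anti-miR-ctl, 1.14 and 0.954 CPM in OPC anti-miR-145, 5.93 and 6.63 CPM in OL miR-ctl, 17.3 and 12.5 CPM in OL miR-145, and 16.03 and 9.93 CPM in OL miR-145+miR-219. For both genes the OPC groups were low, OL miR-ctl lay between, and all 4 mimic libraries lay above both OL miR-ctl libraries. Between the control groups of the 2 stages S100a1 rose 8.60-fold in OLs (log2 fold change 3.10, standard error 0.338, adjusted p = 0.00123) and S100a13 rose 4.68-fold (log2 fold change 2.22, standard error 0.195, adjusted p = 0.000592). In OPCs neither was called with the inhibitor. S100a13 had a log2 fold change of -0.34 (adjusted p = 0.376), and S100a1, which had only 5 to 24 counts per OPC library, had -0.90 (adjusted p = 0.327). Without OPC anti-miR-145 replicate 1 the S100a1 value was -2.17 and was called (adjusted p = 0.0257).

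S100a16 (ENSRNOG00000012053), a widely expressed member that is also found in astrocytes, had another order of levels. It was at 14.3 and 15.0 CPM in OPC anti-miR-ctl, 16.7 and 15.2 CPM in OPC anti-miR-145, 9.65 and 10.96 CPM in OL miR-ctl, 65.7 and 31.8 CPM in OL miR-145, and 49.8 and 28.2 CPM in OL miR-145+miR-219. OL miR-ctl was thus the lowest group, the OPC groups lay just above it, and the mimic groups were highest and overlapped. It fell from OPC anti-miR-ctl to OL miR-ctl by 0.51 on the log2 scale (standard error 0.126, adjusted p = 0.0194). That call was lost when all 5 groups shared a single fit (adjusted p = 0.258), and without OPC anti-miR-ctl replicate 1 (-0.57, adjusted p = 0.111) or replicate 2 (-0.49, adjusted p = 0.151). With the inhibitor its log2 fold change was 0.14 (standard error 0.108, adjusted p = 0.388).

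S100a11 (ENSRNOG00000010105), a partner of annexin A1, was measured on few counts, 6 to 114 per library. It was at 0.164 and 0.411 CPM in OPC anti-miR-ctl, 0.199 and 0.136 CPM in OPC anti-miR-145, 0.779 and 1.50 CPM in OL miR-ctl, 1.15 and 2.88 CPM in OL miR-145, and 1.66 and 2.25 CPM in OL miR-145+miR-219. All 4 OPC libraries lay below all 6 OL libraries, OL miR-145 overlapped both other OL groups, and both OL miR-145+miR-219 libraries lay above OL miR-ctl. Between the control groups it rose by a log2 fold change of 1.99 in OLs (standard error 0.590, adjusted p = 0.0351), a call that was lost without OPC anti-miR-ctl replicate 1 (1.43, adjusted p = 0.173) or replicate 2 (2.75, adjusted p = 0.0589). In RefSeq's annotation 5 pseudogenes and 2 further genes are named after S100a11 and 1 pseudogene after S100a10, so counting could have split their reads and the levels of both are uncertain to that extent.

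S100a10 (ENSRNOG00000023226) was the member that rose with the inhibitor. It was at 138.9 and 150.4 CPM in OPC anti-miR-ctl, 379.0 and 319.2 CPM in OPC anti-miR-145, 67.2 and 69.8 CPM in OL miR-ctl, 95.7 and 96.4 CPM in OL miR-145, and 97.7 and 72.6 CPM in OL miR-145+miR-219. Both inhibitor libraries lay above all 8 others, and the OL miR-ctl libraries were the lowest. The inhibitor raised it 2.41-fold, from 144.6 ± 8.13 to 349.1 ± 42.3 CPM (SD, n = 2 each), which is 1.29 on the log2 scale (standard error 0.114, adjusted p = 0.00032). Between the control groups it was lower in OLs, with a log2 fold change of -1.08 (standard error 0.0833, adjusted p = 0.000388). The partner of S100A10, annexin A2 (Anxa2), was at 34.3 ± 2.68 CPM with the inhibitor and 32.9 ± 1.52 CPM in OPC anti-miR-ctl (SD, n = 2 each), which differ by 0.075 on the log2 scale (standard error 0.103, adjusted p = 0.624).

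S100a4 (ENSRNOG00000011821), which binds non-muscle myosin and is known for its part in cell motility, and S100a6 (ENSRNOG00000011647), also called calcyclin, which binds calcyclin-binding protein, were highest in OPC anti-miR-ctl. S100a4 was at 47.6 and 49.1 CPM in OPC anti-miR-ctl, 11.3 and 5.65 CPM in OPC anti-miR-145, 6.53 and 9.95 CPM in OL miR-ctl, 13.01 and 13.66 CPM in OL miR-145, and 11.1 and 9.15 CPM in OL miR-145+miR-219. S100a6 was at 5.78 and 7.07 CPM in OPC anti-miR-ctl, 1.02 and 0.545 CPM in OPC anti-miR-145, 0.327 and 0.553 CPM in OL miR-ctl, 0.404 and 3.11 CPM in OL miR-145, and 0.865 and 0.589 CPM in OL miR-145+miR-219. Both OPC anti-miR-ctl libraries lay above the 8 others for each gene, and the other 4 groups overlapped in part. With the inhibitor S100a4 fell by 2.50 on the log2 scale, 5.71-fold (standard error 0.281, adjusted p = 0.000875), and S100a6 fell by 3.03, 8.22-fold (standard error 0.300, adjusted p = 0.000494). From OPC anti-miR-ctl to OL miR-ctl S100a4 fell by 2.56 (standard error 0.209, adjusted p = 0.000466), and S100a6 fell by 3.88 (standard error 0.314, adjusted p = 0.000456). In the OLs S100a6 rested on 13 to 123 counts, and the 123 came from OL miR-145 replicate 2 alone.

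The calls with the inhibitor stood beside changes in the marker lists of OPCs and of other cells. Over all genes 12.1% were called higher and 16% lower in that comparison. Of 6 OPC markers tested 4 rose and 1 fell, and their sum was 6904 and 7938 CPM with the inhibitor against 6064 and 5855 CPM without it. Of 7 neuron markers 4 rose and 0 fell, with sums of 152.0 and 145.9 CPM against 98.8 and 95.3 CPM. Of 13 microglia markers 7 rose and 6 fell, and their sum was 1347 and 1043 CPM with the inhibitor against 1606 and 1492 CPM without it. Ptprc, the leukocyte antigen CD45, was at 33.3 and 27.5 CPM with the inhibitor and 91.8 and 84.2 CPM without it, and Lyz2 was at 155.1 and 94.2 CPM against 466.7 and 431.8 CPM, whereas the complement gene C1qa was at 203.9 and 160.6 CPM against 86.8 and 80.8 CPM. The 5 endothelial markers summed to 3.03 and 3.41 CPM against 12.4 and 11.5 CPM, a gap made by Flt1, a receptor of vascular growth factors, at 0.993 and 0.749 CPM against 10.7 and 10.1 CPM. In that list 3 of the 5 had a higher mean with the inhibitor, 0 were called higher and 1 was called lower, with a median log2 fold change of 0.31. Of 5 fibroblast or mural markers tested 1 rose and 0 fell, with sums of 6.36 and 4.56 CPM against 2.92 and 3.62 CPM. The 10 astrocyte markers summed to 478.1 and 529.6 CPM against 689.3 and 650.1 CPM, with 2 of the 9 tested called higher and 4 called lower. Slc1a3 was at 167.2 and 202.8 CPM against 403.7 and 376.4 CPM, and Aldoc at 180.5 and 169.8 CPM against 221.2 and 212.8 CPM. Gfap went the other way, at 40.7 and 51.1 CPM against 8.23 and 7.81 CPM, as did Sox9, at 75.3 and 82.3 CPM against 14.9 and 13.9 CPM. The part of these markers in the S100 values was not tested.

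**Figure D2:**
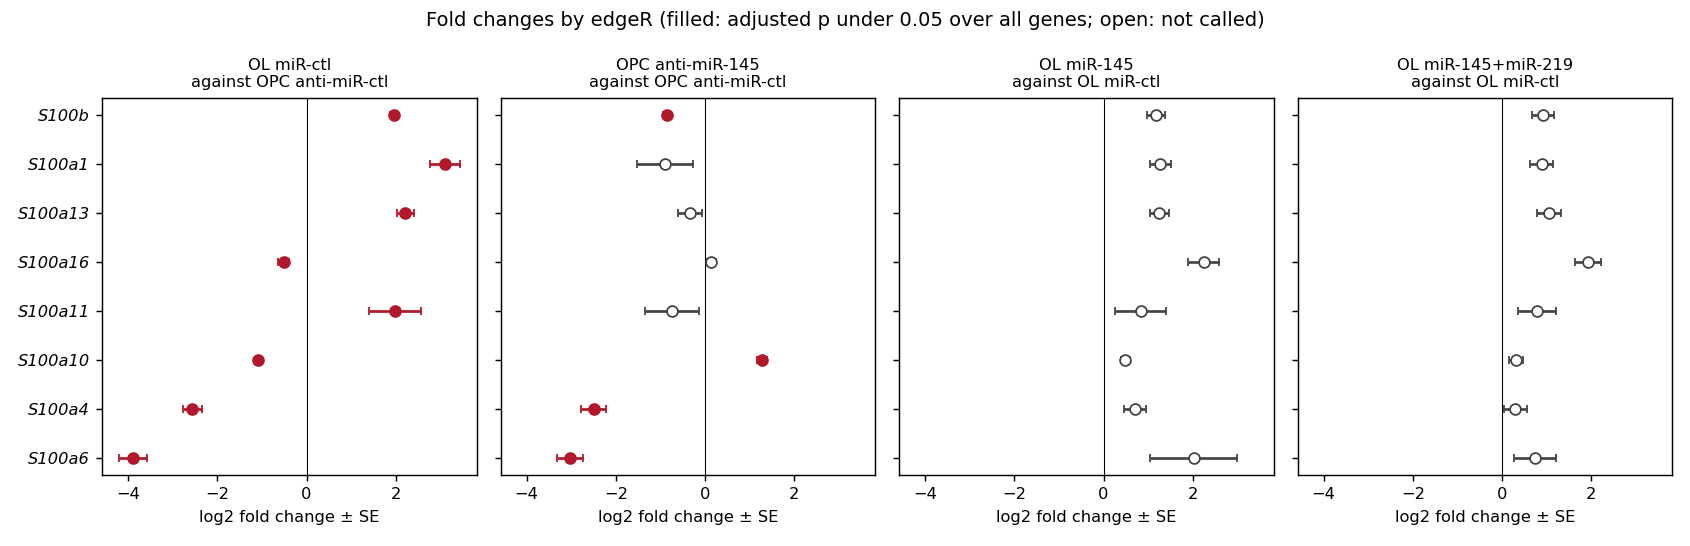
Log2 fold change of the 8 S100 genes (points) with its standard error (bars) in 4 comparisons by edgeR, filled where the adjusted p over all genes was under 0.05. All 8 were called between the stages and 4 with the inhibitor in OPCs. In OL miR-145 and in OL miR-145+miR-219 against OL miR-ctl 0 were called, and every point lay above 0.

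The promoters of the members called with the inhibitor are shown for those listed in RefSeq's promoter table, which held 6 of the 8 members (not S100a1 or S100a10). With them stands S100a16, which had the largest log2 fold change in OL miR-145 against OL miR-ctl of the members whose libraries did not overlap. Each run is the 250 bases before the start site on the strand of the gene in rat GRCr8, and the capitals mark matches to TATAAA or GGGCGG, read on both strands. S100a4 is at chr2:178388279-178388528 on the plus strand, S100a6 at chr2:178398287-178398536 on the plus strand, S100b at chr20:12381082-12381331 on the minus strand and S100a16 at chr2:178313736-178313985 on the plus strand.
S100a4: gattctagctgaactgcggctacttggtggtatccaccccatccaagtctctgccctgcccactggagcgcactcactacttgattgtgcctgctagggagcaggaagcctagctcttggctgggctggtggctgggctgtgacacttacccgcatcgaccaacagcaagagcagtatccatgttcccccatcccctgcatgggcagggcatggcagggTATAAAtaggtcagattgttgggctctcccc
S100a6: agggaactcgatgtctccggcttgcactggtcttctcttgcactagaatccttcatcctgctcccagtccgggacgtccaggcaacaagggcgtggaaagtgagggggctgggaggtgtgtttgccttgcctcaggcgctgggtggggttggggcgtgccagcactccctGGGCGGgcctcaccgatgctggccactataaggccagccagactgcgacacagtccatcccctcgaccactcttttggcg
S100b: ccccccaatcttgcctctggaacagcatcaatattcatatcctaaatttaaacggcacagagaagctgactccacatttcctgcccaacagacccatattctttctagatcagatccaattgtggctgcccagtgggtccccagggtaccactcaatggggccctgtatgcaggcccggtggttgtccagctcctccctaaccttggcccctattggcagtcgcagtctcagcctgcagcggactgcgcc
S100a16: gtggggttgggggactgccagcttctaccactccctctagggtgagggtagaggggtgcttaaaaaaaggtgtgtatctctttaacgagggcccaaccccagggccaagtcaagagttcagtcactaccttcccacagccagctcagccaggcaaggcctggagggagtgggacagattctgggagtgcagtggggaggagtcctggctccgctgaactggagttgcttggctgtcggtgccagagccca
The letters were searched from 250 bases before to 50 after the start in the 6 members and in all 27457 promoters of the table. TATAAA, the core of the TATA box, was in 1 of the 6, S100a4, where it lay 31 to 26 bases before the start, and in 14.3% of all promoters. GGGCGG, a GC box, was in 3 of the 6, S100a6, S100a11 and S100a13, and in 34.9% of all. The E-box CANNTG was in 3 of the 6, S100a11, S100a16 and S100b, and in 71.6% of all, and the AP-1 letters TGANTCA were in 0 of the 6 and in 7.33% of all. Between S100a4 and S100a6, which fell together with the inhibitor, no searched motif was shared.

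The question for the OLs was what a surplus of miR-145-5p does to their transcripts. By edgeR 0 of 8 members and 0 of 15461 genes (0%) passed an adjusted p of 0.05 in OL miR-145 against OL miR-ctl. All 8 members had a higher mean with the mimic, their median log2 fold change was 1.22 against -0.01 over all genes tested, and for 6 both mimic libraries lay above both control libraries, which was so for 22.9% of genes tested. An unadjusted p under 0.05 was found for 6 members and for 13.4% of all genes. DESeq2 on the same libraries called 649 genes (4.2%), among them 5 members, and an edgeR fit over all 5 groups called 79 genes (0.511%), among them S100a16.

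S100a16 had 48.8 ± 24.0 CPM in OL miR-145 and 10.3 ± 0.929 CPM in OL miR-ctl (SD, n = 2 each), which differ by 2.25 on the log2 scale (standard error 0.355, adjusted p = 0.158 by edgeR, 1.9e-07 by DESeq2). Its mimic libraries differed by more than the higher control library held, at 65.7 and 31.8 CPM. For S100a1 the log2 fold change was 1.28 (standard error 0.238, adjusted p = 0.164 by edgeR, 0.00126 by DESeq2), for S100a13 it was 1.25 (standard error 0.218, 0.158 and 0.000535), and for S100b it was 1.18 (standard error 0.206, 0.158 and 1.92e-05). These values lay close together, and each gene was higher in OL miR-145 replicate 1 than in replicate 2. S100a10 had the smallest difference, a log2 fold change of 0.49 (standard error 0.102, adjusted p = 0.173 by edgeR, 0.0174 by DESeq2). S100a4 had 0.70 (standard error 0.241) and was not called by either tool, with adjusted p of 0.324 and 0.201.

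The groups of S100a6 and S100a11 overlapped in that comparison. The mean of S100a6 was 1.76 ± 1.91 CPM in OL miR-145 and 0.440 ± 0.160 CPM in OL miR-ctl (SD, n = 2 each), a difference on the log2 scale of 2.02 (standard error 0.969, adjusted p = 0.431) that became -0.11 without OL miR-145 replicate 2. That library also held 29.9 CPM of Col3a1 and 16.4 CPM of Col1a1, the collagens of fibroblasts, where the 5 other OL libraries held at most 3.06 and 2.78 CPM, and its microglia markers summed to 1127 CPM where those of the 5 other OL libraries summed to at most 739.1 CPM. For S100a11 the log2 difference was 0.84 (standard error 0.572, adjusted p = 0.559), and 0.025 without the same library. The part of these markers in both values was not tested.

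With miR-145 and miR-219 mimics together, 0 of 8 members and 0 of 15436 genes (0%) were called against OL miR-ctl, while 4 members and 6.19% of genes had an unadjusted p under 0.05. Again all 8 had a higher mean than the control, with a median log2 fold change of 0.84 against 0.0014 over all genes, and 7 were free of overlap, as were 17.3% of genes tested in that direction. The log2 fold change was 1.92 for S100a16 (standard error 0.295, adjusted p = 0.789), 1.05 for S100a13 (0.267, 0.800), 0.92 for S100b (0.250, 0.800), 0.89 for S100a1 (0.261, 0.800), 0.78 for S100a11 (0.424, 0.815), 0.74 for S100a6 (0.468, 0.832), 0.32 for S100a10 (0.162, 0.815) and 0.30 for S100a4 (0.251, 0.885). DESeq2 called 106 genes (0.687%), among them S100a16 (adjusted p = 1.73e-06). Both mimic comparisons share their 2 control libraries, so these values are not a repeat of the first.

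Set directly against OL miR-145, the pair of mimics gave a lower mean for all 8, with a median log2 fold change of -0.30 against -0.0028 over all genes. None of these differences was called (0 of 8 members, 0 of 15501 genes, 0%), and 0 members but 1.47% of genes had an unadjusted p under 0.05. Only the libraries of S100a4 were free of overlap, at 11.1 and 9.15 CPM against 13.01 and 13.66 CPM, a log2 fold change of -0.41 (standard error 0.162, adjusted p = 1), and 11.2% of genes were free of overlap in that direction. When single libraries were left out, the sign turned at least once for S100b, S100a13, S100a16, S100a10, S100a11 and S100a6. DESeq2 called 9 genes (0.0581%) and 0 members. A p that misses the threshold does not show that the 2 treatments act alike.

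Markers of astrocytes and of fibroblasts or mural cells had higher means beside the S100 genes in OLs given miR-145-5p, and so did most microglia markers. The astrocyte sum was 13240 and 8991 CPM in OL miR-145, 10953 and 6469 CPM in OL miR-145+miR-219, and 6462 and 5439 CPM in OL miR-ctl. All 10 had a higher mean in OL miR-145 than in OL miR-ctl, 8 were free of overlap and 0 were called by edgeR (7 at an unadjusted p under 0.05), with a median log2 fold change of 0.87. Gfap was at 9708 and 6709 CPM in OL miR-145 against 4799 and 4179 CPM in OL miR-ctl, and Aqp4 at 433.0 and 342.0 CPM against 168.1 and 185.8 CPM. Of the defining markers Gjb6 was at 0.148 to 0.375 CPM and Aldh1l1 at 1.32 to 2.25 CPM in the OLs. The 4 mimic libraries stood in the same order for S100b, S100a1, S100a13, S100a16 and the astrocyte sum. OL miR-145 replicate 1 was highest, then OL miR-145+miR-219 replicate 1, OL miR-145 replicate 2 and OL miR-145+miR-219 replicate 2. The other members had other orders. The sum of the maturing OL markers had the reverse order, at 16248, 20315, 25971 and 35690 CPM in these libraries. From OPC anti-miR-ctl to OL miR-ctl, 9 of the 10 astrocyte markers were called higher, as were 28.8% of all genes tested. All 6 fibroblast or mural markers tested had a higher mean in OL miR-145 than in OL miR-ctl and were free of overlap, 0 were called by edgeR (6 at an unadjusted p under 0.05), and their median log2 fold change was 1.95. The list summed to 52.2 and 89.1 CPM against 32.0 and 21.9 CPM. Of 13 microglia markers 12 had a higher mean, 4 were free of overlap and 0 were called (3 at an unadjusted p under 0.05), with a median log2 fold change of 0.73. Their sums of 454.3 and 1127 CPM in OL miR-145 overlapped those of 444.6 and 661.6 CPM in OL miR-ctl. Over all genes tested in that comparison, 22.9% were free of overlap and higher with the mimic, and 13.4% had an unadjusted p under 0.05. The part of RNA from these other cells in the values of the S100 genes was not tested.

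**Figure D3:**
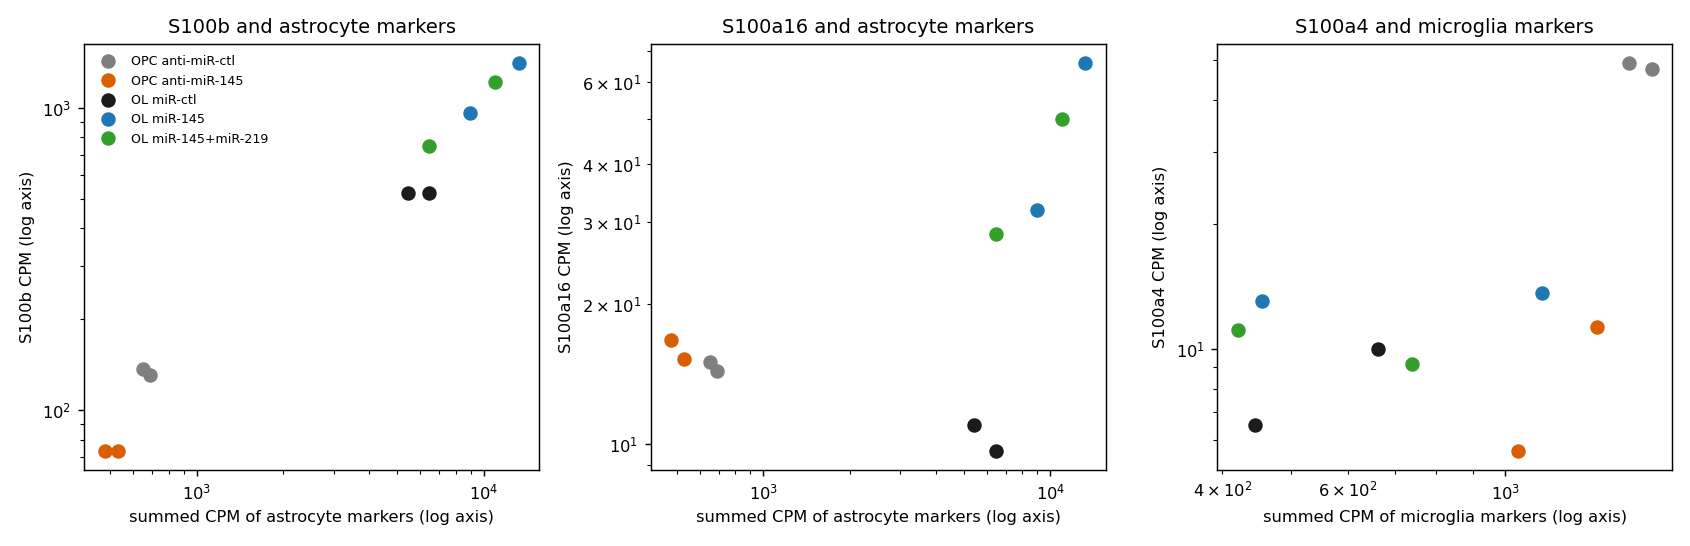
S100b and S100a16 level against the summed level of 10 astrocyte markers, and S100a4 level against that of 13 microglia markers, in CPM on log axes, with each point a library coloured by group. S100b and the astrocyte sum were both higher in the OL than in the OPC libraries, S100a16 was lowest in OL miR-ctl although its astrocyte sum (5439 and 6462 CPM) exceeded that of the OPCs, and S100a4 at 47.6 and 49.1 CPM stood apart in OPC anti-miR-ctl.

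Together the 8 genes took a small share of each library. The share was 0.0362% and 0.0386% of counts in OPC anti-miR-ctl, 0.0494% and 0.0428% in OPC anti-miR-145, 0.0606% and 0.0608% in OL miR-ctl, 0.153% and 0.111% in OL miR-145, and 0.136% and 0.0851% in OL miR-145+miR-219. The Wilson 95% interval of the highest ran from 0.152% to 0.154% and covers counting error only. The gap between the OL miR-145 replicates was far wider than that, whereas the intervals of the OL miR-ctl replicates, 0.0598% to 0.0613% and 0.0599% to 0.0616%, overlapped. Which gene supplied the counts changed with the group. S100b supplied 83.3% to 87.2% of the S100 counts in the OL libraries, 38.5% and 38.0% in OPC anti-miR-ctl, and 15.2% and 17.7% in OPC anti-miR-145. S100a10 supplied 5.95% to 11.2% in OLs, 41.0% and 41.6% in OPC anti-miR-ctl, and 78.4% and 76.9% in OPC anti-miR-145. These are shares of counts, which also depend on transcript length, and not shares of transcripts.

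**Figure D4:**
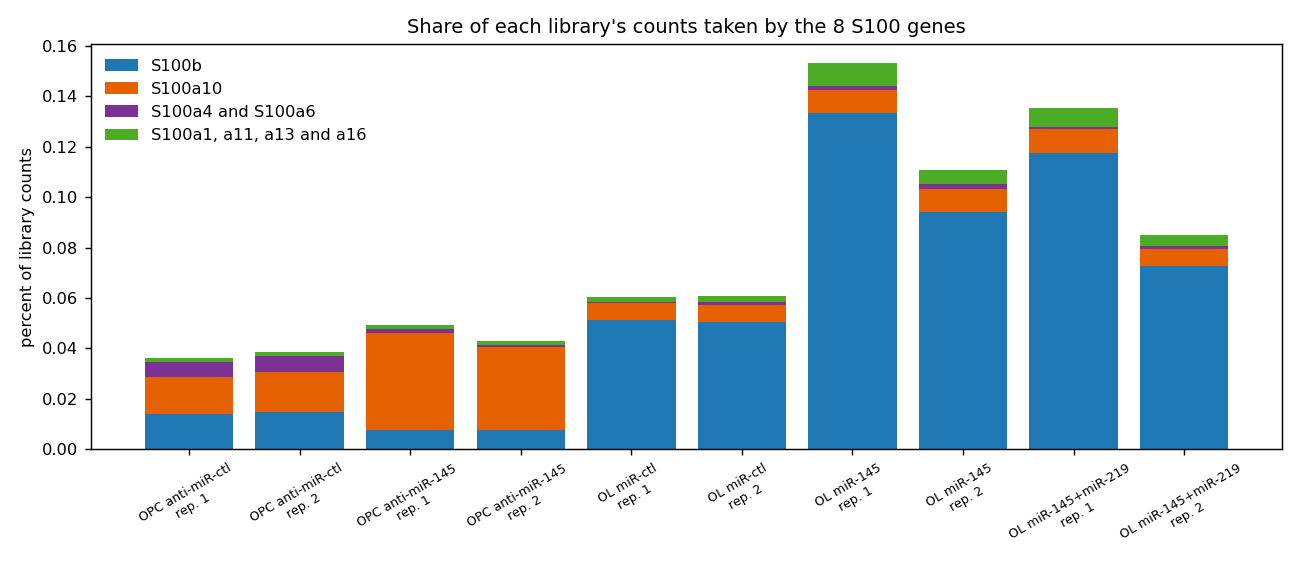
Share of each library's counts (percent) taken by the 8 S100 genes, stacked by gene or gene group, for the 10 libraries. S100b formed most of each bar in OLs (83.3% to 87.2% of it) and S100a10 most of each bar in OPC anti-miR-145 (78.4% and 76.9%).

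In RefSeq's gene order on rat chromosome 2, the 14 annotated genes from S100a1 to S100a9 include 11 coding genes, all of them S100 genes, with S100a1, S100a13, S100a16, S100a4 and S100a6 among them. S100a11 and S100a10 lie further along the same chromosome with 1 gene between them, and S100b lies on chromosome 20. Along the cluster the members followed here went from higher to lower in OLs, an order that S100a3, given below, broke. In their order there, the log2 fold change from OPC anti-miR-ctl to OL miR-ctl was 3.10 for S100a1, 2.22 for S100a13, -0.51 for S100a16, -2.56 for S100a4 and -3.88 for S100a6. The neighbours S100a11 and S100a10 had 1.99 and -1.08. Of the other genes with an S100 symbol, S100a3, which lies between S100a16 and S100a4, had 94 and 57 counts in OL miR-ctl and 9 in each OPC anti-miR-ctl library, a log2 fold change of 3.16 (standard error 0.352, adjusted p = 0.00132). S100a8, a calprotectin subunit of neutrophils and monocytes, had 8 and 7 counts in OPC anti-miR-ctl and 1 and 2 in OPC anti-miR-145. It had 0 in both OL miR-ctl libraries and 2 to 5 in the mimic libraries, too few for a fold to be relied on. By edgeR it was called lower with the inhibitor (adjusted p = 0.0446) and between the stages (adjusted p = 0.0149), and by DESeq2 in neither. S100pbp, which encodes an S100-binding protein and is no member of the family, lay between 28.8 and 36.1 CPM in every library.

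Of the 7 genes that flank the cluster on its S100a1 side, 1 was called with the inhibitor, Npr1, a natriuretic peptide receptor, with means of 13.7 ± 3.08 and 25.4 ± 3.32 CPM (SD, n = 2 each) and a log2 difference of -0.88 (adjusted p = 0.0103). Leaving out OPC anti-miR-145 replicate 1 or 2 made that 4 called genes each time. Between the stages 1 was called higher in OLs, Snapin (0.98, adjusted p = 0.000369), and 3 lower, Npr1 (-2.20, adjusted p = 0.000332), Slc27a3 (-1.57, adjusted p = 0.000632) and Ilf2 (-0.40, adjusted p = 0.00937). Over all genes 12.1% were called higher and 16% lower with the inhibitor, and 28.8% and 28.7% between the stages. In OL miR-145 and in OL miR-145+miR-219 0 were called against OL miR-ctl, with medians of 0.087 and 0.071. An unadjusted p under 0.05 was found for 2 and 1 of the 7 and for 13.4% and 6.19% of all genes. DESeq2 called 1 and 0 of the 7, and 4.2% and 0.687% of all genes. The smallest p belonged to Npr1 (1.20, adjusted p = 0.158) and Slc27a3 (0.90, adjusted p = 0.307) with miR-145, and to Npr1 (0.62) and Slc27a3 (0.65) with both mimics, each at an adjusted p of 0.800 and 0.814. Between the mimic groups 0 were called (1 at an unadjusted p under 0.05, 0 by DESeq2), and Npr1 (-0.59) and Gatad2b (0.14) had the smallest p, both with an adjusted p of 1.

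**Figure D5:**
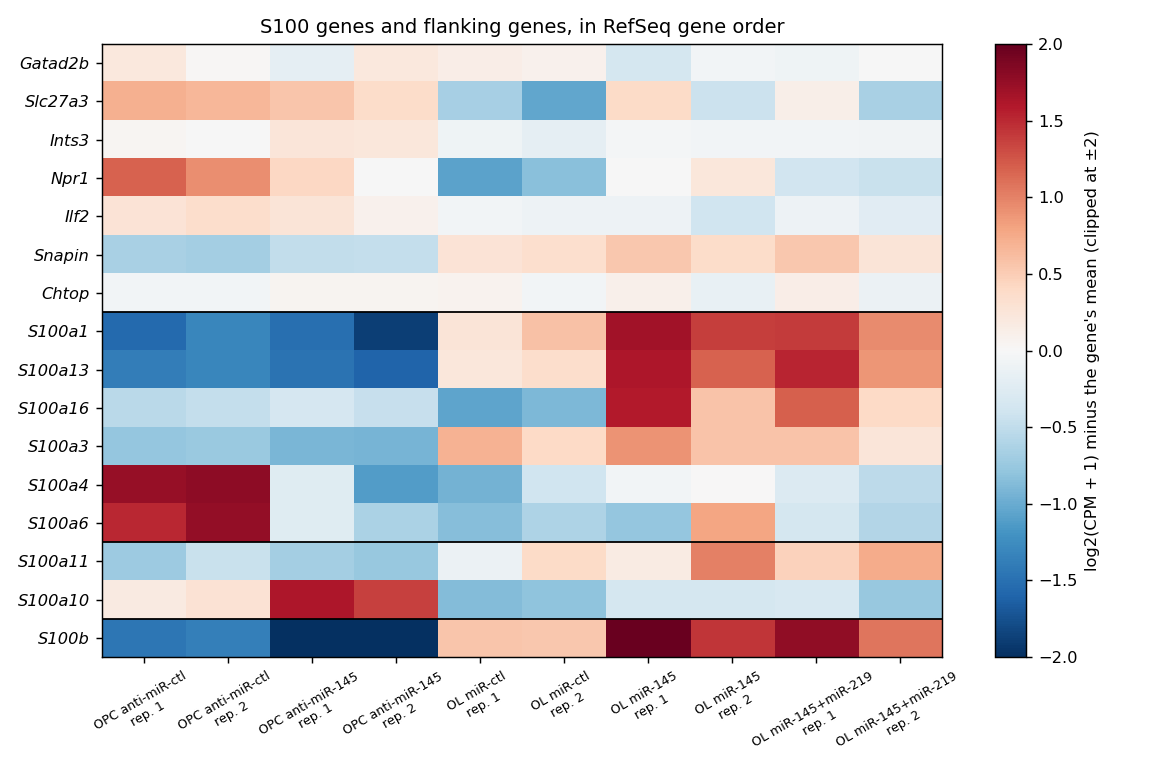
S100 genes and their flanking genes in RefSeq gene order (rows, lines setting off the flanking genes, the pair S100a11 and S100a10, and S100b) in the 10 libraries (columns), coloured by log2(CPM + 1) minus the mean of the gene and clipped at 2 in either direction. S100a4 and S100a6 are high in the OPC anti-miR-ctl columns, a few rows from S100a1 and S100a13, which are low there.

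Proteins that S100 proteins bind or act with were called in both directions, as were genes at large. Over all genes 12.1% were called higher and 16% lower with the inhibitor, and 28.8% and 28.7% between the stages. Of a list of 20 such genes 19 were found, on 20 gene IDs. Among those tested with the inhibitor, 1 was called higher and 5 lower, and 3 and 7 without OPC anti-miR-145 replicate 2. Il1a, the cytokine exported with S100A13, had means of 0.428 ± 0.0270 and 6.60 ± 0.630 CPM (SD, n = 2 each) and a log2 difference of -3.92 (adjusted p = 7.5e-05). Ahnak, a scaffold that binds the S100A10 and annexin A2 complex, had -2.02 (adjusted p = 0.000604), Anxa11, an annexin, had -0.80 (adjusted p = 0.00309), and Plat, the tissue plasminogen activator, rose by 0.68 (adjusted p = 0.00268). Between the stages 4 were called higher in OLs and 9 lower, and 4 and 4 without OPC anti-miR-ctl replicate 2. Ahnak (2.65), Plat (2.30) and Anxa1 (2.41) were higher and Il1a (-4.35) lower, with adjusted p from 6.7e-05 to 0.000592. In OL miR-145, 12 of 20 IDs had a higher mean than OL miR-ctl, with a median log2 fold change of 0.16. None was called (3 at an unadjusted p under 0.05, 1 by DESeq2), while 13.4% of all genes had an unadjusted p under 0.05 and DESeq2 called 4.2%. Plat was at 234.7 ± 54.4 against 120.8 ± 4.21 CPM (0.96, adjusted p = 0.164) and Anxa11 at 0.35 (adjusted p = 0.317). In OL miR-145+miR-219 0 of 19 were called (2 at an unadjusted p under 0.05, 0 by DESeq2), where the shares of all genes were 6.19% and 0.687%. The median was 0.033, and Fgf1 (-2.23) and Plat (0.73) had the smallest p, both with an adjusted p of 0.800. Between the mimic groups 0 of 20 were called (1 at an unadjusted p under 0.05, 1 by DESeq2), with a median of -0.14. The shares of all genes there were 1.47% and 0.0581%. The smallest p there belonged to an ID of Myh9, non-muscle myosin IIA, whose counts are split over 2 IDs and so uncertain, and to Anxa11 (-0.22).

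Other EF-hand proteins, from a list of 24 of which 22 were found, were called in both directions as well. With the inhibitor 12.1% of all genes were called higher and 16% lower. With the inhibitor 5 of 23 IDs were higher, among them Ncs1, neuronal calcium sensor 1 (1.21, adjusted p = 0.000678), and Ncald, neurocalcin (0.41, adjusted p = 0.0146), and 2 were lower, Pvalb, parvalbumin (-3.68, adjusted p = 0.000484), and Calb2, calretinin (-0.98, adjusted p = 0.0148). These counts were 2 and 1 without OPC anti-miR-ctl replicate 1, and 1 and 1 without its replicate 2. Between the stages 9 were called higher in OLs and 7 lower, where 28.8% and 28.7% of all genes were. Calb1, calbindin, had 4.48, Pvalb 2.83, Ncald 1.18 and Efhd2 -1.60. In OL miR-145 17 of 23 had a higher mean and 0 were called (6 at an unadjusted p under 0.05, 4 by DESeq2). Of all genes 13.4% had an unadjusted p under 0.05 there, and DESeq2 called 4.2%. The median of the list was 0.23, and Efhd1 (1.16, adjusted p = 0.158) and Calb1 (1.04, adjusted p = 0.164) had the smallest p. With both mimics 17 of 23 were again higher in mean and 0 called (4 at an unadjusted p under 0.05, 2 by DESeq2). The shares of all genes were 6.19% at an unadjusted p under 0.05 and 0.687% by DESeq2. The median of the list was 0.14, and Calb1 had 1.54 and Efhd1 0.90, with adjusted p of 0.777 and 0.800. Between the mimic groups 0 were called (0 also at an unadjusted p under 0.05 and by DESeq2), the median was -0.090, and Calb1 (0.49) and Efhd2 (-0.24) had the smallest p.

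Each profile was finally set beside those of 10780 other named genes with a mean of at least 5 CPM, by the root mean square difference of log2(CPM + 1) about each gene's own mean over the 10 libraries. These distances are descriptions, since the libraries share groups and replicates, and a gene of few counts moves little on that scale. Nearest to S100a13 was Nbl1, a secreted BMP antagonist, at 0.0673, followed by Galnt18 and Megf10, and Nbl1 was also nearest to S100a1 at 0.137, followed by Mgst1 and Lhfpl6. S100b was nearest to Gli3, a transcription factor of hedgehog signalling, at 0.169, then Gstm7 and Id4. S100a10 was nearest to Ncs1 at 0.127, then Prr7 and F2r, S100a4 to Cd302 at 0.213, then Trim34 and Parp10, and S100a6 to St3gal1 at 0.243, then LOC498276, which is listed on 2 IDs. S100a11 was nearest to Gsn, gelsolin, at 0.147, then Pqlc3 and Pak7. S100a16 had no close match, its nearest being Fads6 at 0.343, then Cd24 and Camk2g. Among the members themselves S100a1 and S100a13 were closest (0.149), then S100a1 and S100b (0.326), S100a4 and S100a6 (0.384) and S100a13 and S100b (0.386), and S100a10 and S100b were farthest apart (2.32).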

How the data were processed

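RNA of 10 libraries, 2 in each of 5 groups, was sequenced from stranded mRNA libraries. The authors assigned reads to GENCODE Rnor6.0 transcripts with Salmon 0.12.0, loaded the result with tximport and deposited it as estimated counts of each gene, without normalization. Of a library's values 16.0% to 17.5% were not whole, and counts were rounded. Their deposited DESeq2 table, which holds a mean signal, fold changes and p-values, gave only the gene symbols.

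Groups came from sample titles. For each of 5 comparisons edgeR 4.0.16 was run on the 4 libraries concerned (R 4.3.3, TMM, estimateDisp, glmQLFit, glmQLFTest), keeping genes that reached 5 counts in 2 or more of them. Adjusted p-values are Benjamini-Hochberg values across all tested genes, and under 0.05 a gene was called. The standard error is the fold change over the square root of F. An exact permutation test of 2 against 2 cannot go below p = 0.333 and was not used. Alternatives were DESeq2 1.42.0, its size factors in edgeR, other filters, all groups in a single fit, a replicate term and leaving out each library. Over all genes, replicates differed by far more than counting error. Scripts were tested on simulated data.

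The 8 genes and the lists of partners, EF-hand proteins, flanking genes and markers were chosen with earlier results of these data known. All 8 were named, and of each gene list (the markers apart) up to 4 called genes by smallest p, or 2 where none was called. Anxa2 and the markers given as examples were picked after their values were seen. Gene order, promoters and the miRNA are from RefSeq (GRCr8), a build other than that of the counts, and only printed sequences carry its coordinates. The marker genes Lhfpl3, Col1a2, Lum, Rgs5, Cldn5, Pecam1, Snap25 and Slc17a7 and a few genes of the other lists were not found by symbol, and a marker item is not reported here.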

Additional observations from a re-analysis of the deposited data

How the results depend on the processing

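The order of the group means of all 8 S100 genes was the same with CPM from library totals and from DESeq2's size factors. In OL miR-145 against OL miR-ctl the count of 0 members and 0 genes became 5 and 649 with DESeq2 and 1 and 79 with all 5 groups in a single fit, and stayed 0 with DESeq2's size factors, with a minimum of 10 counts and with no filter. With both mimics it became 1 member and 106 genes with DESeq2, and 1 gene with no filter. Between the mimic groups DESeq2 called 9 genes, none a member. With the inhibitor the 4348 genes became 2657 in the single fit, and between the stages it called 7 members.

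Leaving out a library assumes that a lone library varies like the other group. The counts of members and genes then ranged from 0 to 0 in each of the 3 OL comparisons, from 4 to 5 members and 2348 to 7133 genes with the inhibitor (7133 without OPC anti-miR-145 replicate 2, 2348 and 2407 without OPC anti-miR-ctl replicate 1 and 2), and from 6 to 8 members and 4780 to 10306 genes between the stages (4842 and 4780 without OPC anti-miR-ctl replicate 1 and 2). Of 787 values of single genes under an alternative, 727 kept their direction and their side of the threshold, 33 passed it only there, 13 no longer passed it and 14 changed sign, all of them genes that were not called. S100a6 ranged from -0.11 to 2.84 in OL miR-145 against OL miR-ctl, and S100a11 from -1.30 to 0.018 with the inhibitor. Between the mimic groups S100a6 ranged from -2.11 to 0.85, S100a10 from -0.41 to 0.011, S100a11 from -0.58 to 0.76, S100a13 from -0.59 to 0.094, S100a16 from -0.79 to 0.27, S100b from -0.66 to 0.038 and the flanking gene Gatad2b from -0.020 to 0.32.

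With the replicate number as a block, edgeR called 7 members and 2272 genes (14.7%) in OL miR-145, and 1 member (S100a16) and 132 genes (0.855%) with both mimics. It called 184 genes (1.19%) and no member between the mimic groups, where S100a11 turned to 0.033. With the inhibitor it called 4 members and 3963 genes (25.6%), and between the stages 8 members and 8534 genes (54.3%). Deviations of same-numbered libraries correlated across genes at 0.403, 0.467, 0.632, -0.152 and 0.0679 in these comparisons, and no source says that same-numbered libraries of different groups came from the same animal or culture, so across groups they are taken to share only a number. With crossed pairing, added after the data were seen, the inhibitor comparison gave 4 members and 5536 genes. The cause of these differences was not tested. With 2 libraries per group and 5 to 258 counts per library for S100a1 and S100a6 in OPCs, depth limits the low members.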
